A study of Homo sapiens with 2 samples.

Results

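Isolated peaks of TET1 were those on chromosomes 1 to 22 and X whose midpoint lay 200 kb or more from the midpoint of every other peak on the same chromosome. There were 1086 of them among 46117 peaks, or 2.35% (95% Wilson interval 2.22% to 2.50%), and they made up 1.84 Mb of the 89.7 Mb that peaks covered. The peaks came from a V5 chromatin immunoprecipitation (ChIP) on day 7 cardiac progenitors, called against an input library, with 1 library in each group. The progenitors were grown from H1, an established human embryonic stem cell line whose own TET1 gene had been tagged with the V5 epitope, after 6 µM of the WNT activator CHIR99021 until day 2 and 5 µM of the WNT inhibitor IWP2 from day 3 to day 5. The labels enter both libraries as wild type and list neither a clone number nor a V5 ChIP from cells without the tag, so TET1 and anything else the antibody binds cannot be told apart. Nor can binding in a few of the cells be told apart from weaker binding in all of them.

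TET1 is a dioxygenase that oxidises 5-methylcytosine and so starts the removal of DNA methylation. Its CXXC zinc finger favours DNA rich in unmethylated CpG, which in human cells lies mostly in CpG islands at gene promoters. Such islands are crowded in gene-rich chromatin and sparse in the long gene-poor stretches of the genome, where an island often stands far from the next.

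The members were chosen by the positions of the called peaks, so their number, spacing and chromosomes are a description. Width and score come from the same comparison of ChIP with input and are described too, without a test. Each group has 1 library, so no spread between replicates exists and the depth is unknown. Every interval covers counting error only and treats peaks as independent. Genes, promoters and base composition at these positions were not analysed here, since no annotation or sequence of hg19, the build of the files, was used. Positions are on hg19 and counted from 1.

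The midpoint of an isolated peak lay a median of 288 kb from the nearest other midpoint (quartiles 237 and 419 kb), while for all other peaks that median was 7.39 kb. Most members stood close to the limit, with 580 (53.4%) from 200 to 300 kb away. Another 183 were at least 500 kb from any other peak, and 32 were at least 1 Mb away. Just inside the limit were a pair on chromosome 12, from 67461214 to 67464590 and from 67662047 to 67664700, whose midpoints lay 200.5 kb apart. Just outside it were a peak on chromosome 14 from 41422916 to 41424505 at 199.96 kb and a peak on chromosome 9 from 121931329 to 121932423 at 199.8 kb. The spread of distances was continuous across the limit, with no gap between isolated and other peaks.

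**Figure D1:**
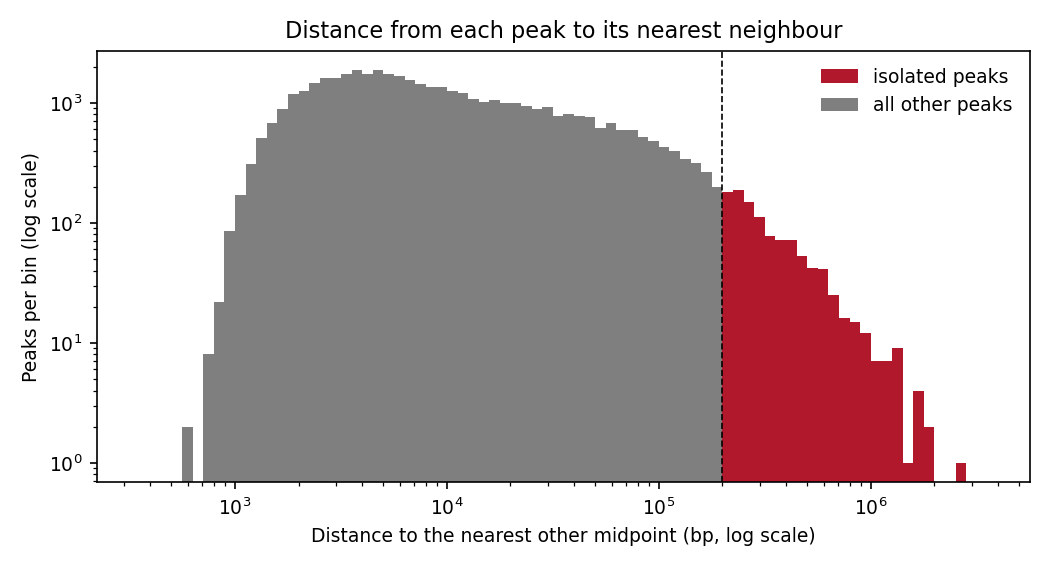
Distance from each of 46117 peaks to the nearest other midpoint, in bp on a log scale, with peaks per bin on a log scale. The dashed line marks 200 kb; the 1086 isolated peaks (red) form the right flank of 1 continuous distribution that reaches 2.75 Mb.

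The peak farthest from any other lay on chromosome 21 from 22369478 to 22371311. It was 1834 bp wide with a score of 505.41, and its neighbours stood 2.75 Mb to the left and 4.56 Mb to the right. The authors' score of a peak runs from 50 upwards and has no stated unit. Next came a peak on chromosome 3 from 164913102 to 164915155, with 1.96 Mb to its nearest neighbour, 2054 bp and a score of 248.83. On chromosome X from 92927964 to 92928996 a peak of 1033 bp with a score of 95.62 stood 1.89 Mb from any other. The peak on chromosome 9 from 10612213 to 10613813 had 1.75 Mb around it, was 1601 bp wide and scored 571.34. Of the 10 most distant peaks the widest had 2054 bp and the highest score was 571.34, and 4 scored below 100.

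Many isolated peaks were neighbours of each other along the chromosome. Of the 1086, 705 had an isolated peak as a direct neighbour and 209 had one on both sides. They fell into 629 runs, of which 381 were a lone peak and 143 a pair. The longest run held 9 successive isolated peaks on chromosome 5 from 23506275 to 31195311, a stretch of 7.69 Mb. Scores in that run went from 54.47 to 824.49 and widths from 515 to 2025 bp, and a peak-free interval of 3.81 Mb lay inside it. Runs of 8 were found on chromosome 3 over 6.03 Mb, chromosome 12 over 5.89 Mb, chromosome 1 over 3.86 Mb and chromosome 2 over 3.41 Mb.

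The surroundings of isolated peaks were sparse but seldom empty. Within 1 Mb on either side an isolated peak had a median of 7 other peaks (quartiles 4 and 13), against 70 (31 and 121) for all other peaks. For 32 isolated peaks that count was 0, and for 107 it was 20 or more, with a highest count of 71. Chromosome ends held few members: 32 isolated peaks (2.95%, interval 2.09% to 4.13%) lay in the terminal 5 Mb at 41 ends, against 9984 of all other peaks (22.2%, 21.8% to 22.6%). A peak-free interval over 1 Mb adjoined 249 isolated peaks (22.9%). Of the 281 such intervals on these chromosomes, 208 had an isolated peak on at least 1 side. Whether they include centromeres or unsequenced parts of hg19 was not tested.

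The chromosomes differed widely in how many of their peaks were isolated. On X 91 of 930 peaks were isolated, or 9.78% (8.04% to 11.9%), against 995 of 45187 on the autosomes, or 2.20% (2.07% to 2.34%). The list also holds 90 peaks on chromosome Y, and no value for X was corrected for copy number. Whether copy number affects the contrast of X with the autosomes was not tested. Chromosome 4 had the highest autosomal share, 6.27% (5.16% to 7.59%), followed by chromosome 13 with 5.04% (3.74% to 6.77%), chromosome 3 with 4.50% (3.69% to 5.48%) and chromosome 5 with 4.47% (3.64% to 5.47%). These intervals overlap, so the order of those 4 is not resolved. At the other end stood chromosome 19, where 4 of 3155 peaks were isolated (0.127%, 0.0493% to 0.326%), chromosome 22 with 6 of 1714 (0.350%, 0.161% to 0.762%) and chromosome 17 with 14 of 3176 (0.441%, 0.263% to 0.739%). Chromosomes 2, 3, 4, 5 and X together carried 467 isolated peaks, which is 43.0% of the members and 20.7% of all peaks.

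Counted by length, the contrast was smaller. Length was measured between the outermost peaks, leaving out any peak-free interval over 1 Mb. X had 0.844 isolated peaks per Mb (95% Poisson interval 0.680 to 1.04) and the autosomes 0.429, a ratio of 1.97 where the ratio of shares was 4.44. Autosomal values ran from 0.0727 per Mb on chromosome 19 to 0.666 on chromosome 4 (0.540 to 0.812), whose interval overlaps that of X. Over the 23 chromosomes the isolated share went down as peaks per Mb went up (Spearman's rho -0.93), which the rule itself favours. It also went down with protein-coding genes per Mb (rho -0.79, Pearson's r -0.53). Genes were counted over whole chromosomes in a GRCh38.p14 gene table, with no positions used. The length leaves out long peak-free intervals, so these values are not gene densities of whole chromosomes. For isolated peaks per Mb the rho with genes per Mb was -0.63, with the same length under both. The order was not strict: by this measure X had 7.87 genes per Mb and chromosome 4 had 5.28. Chromosome 18, with 4.58, had an isolated share of 3.28%. All of these are descriptions across chromosomes of 1 library.

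**Figure D2:**
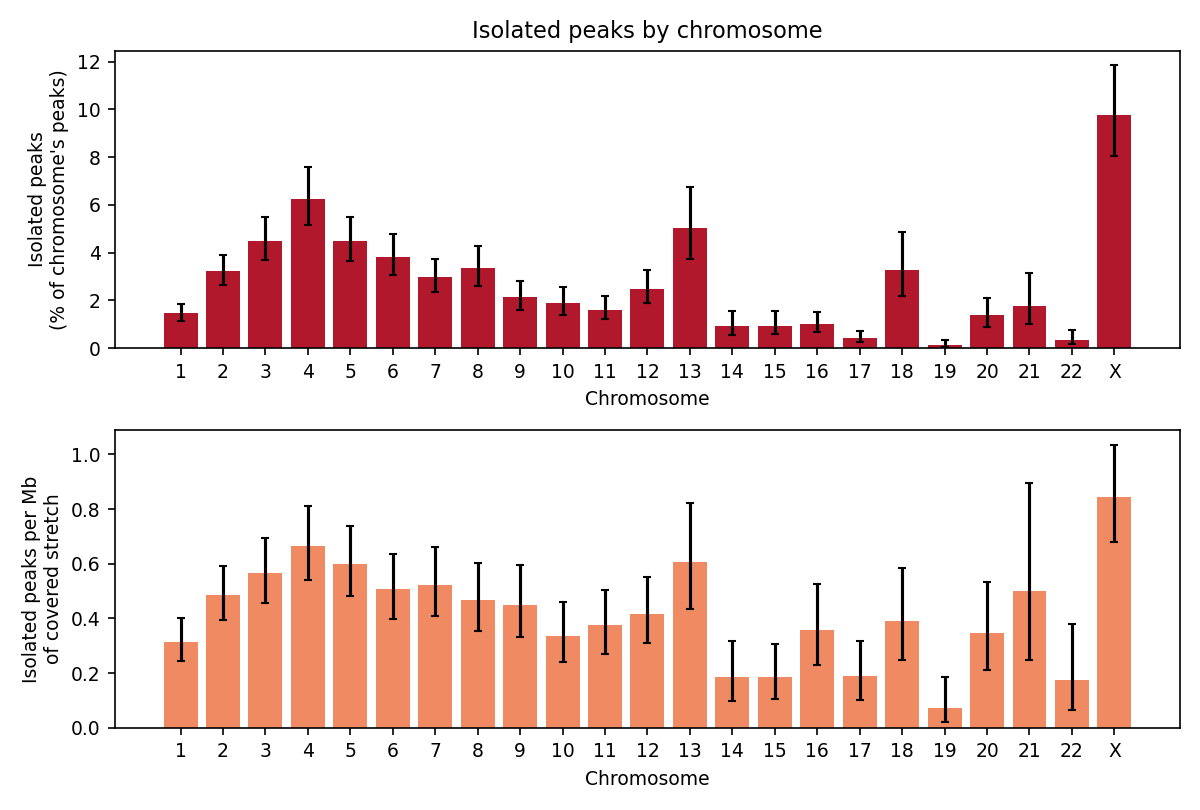
Isolated peaks on each chromosome, as a percentage of its peaks with 95% Wilson intervals (top) and per Mb of covered stretch with exact 95% Poisson intervals (bottom). X is highest in both panels, at 9.78% and 0.844 per Mb, and chromosome 19 lowest, at 0.127% and 0.0727 per Mb.

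Isolated peaks were narrower than the rest. Their median width was 1315 bp (quartiles 1031 and 2148 bp), against 1535 bp (1092 and 2366 bp) for all other peaks, and the order-statistic 95% intervals of the medians, 1258 to 1400 bp and 1524 to 1546 bp, did not overlap. They ranged from 430 to 8468 bp, whereas all other peaks ranged from 415 to 41469 bp. On 20 of the 21 chromosomes with at least 10 isolated peaks the isolated median was the lower of the pair; chromosome 21 was the exception, with 1783 bp for 11 isolated peaks against 1508 bp for its other peaks. Without X the medians were 1315 and 1537 bp.

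Against all other peaks, both tails of the width distribution showed the same direction. Peaks under 1 kb made up 21.7% of isolated peaks (19.4% to 24.3%) and 17.4% of all other peaks (17.1% to 17.8%). Peaks of 5 kb or more made up 1.38% of isolated peaks (15 of 1086, 0.839% to 2.27%) and 3.25% of all other peaks (1463 of 45031, 3.09% to 3.42%). That share was highest, 8.38%, among peaks with the nearest midpoint 5 to 10 kb away. Among peaks 100 to 200 kb from another it was 0.666% (13 of 1953, 0.389% to 1.14%). Isolated peaks thus had the higher share in that comparison, with overlapping intervals. The share under 1 kb was 18.6% in those 1953, below that of isolated peaks, and the intervals overlap too. No isolated peak reached 10 kb, while 134 of all other peaks did (0.298%). None of the 1953 peaks 100 to 200 kb from another reached it either. The 0 of 1086 allows a share of up to 0.276% by the limit of 3 counts and up to 0.352% by the Wilson interval, so a difference from the other peaks was not resolved.

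The difference in width from all other peaks held within classes of score, but not in every class against peaks 100 to 200 kb from another. From a score of 50 to 100 the median width was 956 bp in 313 isolated peaks and 1005 bp in all other peaks. From 100 to 300 it was 1188 bp in 345 isolated peaks and 1450 bp in the others, and from 300 to 1000 it was 1849 bp in 206 isolated peaks and 2201 bp in the others. From 1000 to 3100 the 158 isolated peaks had 2602 bp and the others 2832 bp. At 3100 or more, where scores are mostly tied and are called the ceiling here, 64 isolated peaks had 3608 bp and the others 3988 bp, with intervals of 3387 to 3902 bp and 3912 to 4099 bp. The ratio of medians thus ran from 0.819 to 0.951. Set against the 1953 peaks whose nearest midpoint lay 100 to 200 kb away, the ratio ran from 0.968 to 1.15. In the ceiling class isolated peaks were the wider of these, 3608 bp against 3134 bp (2943 to 3311 bp).

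**Figure D3:**
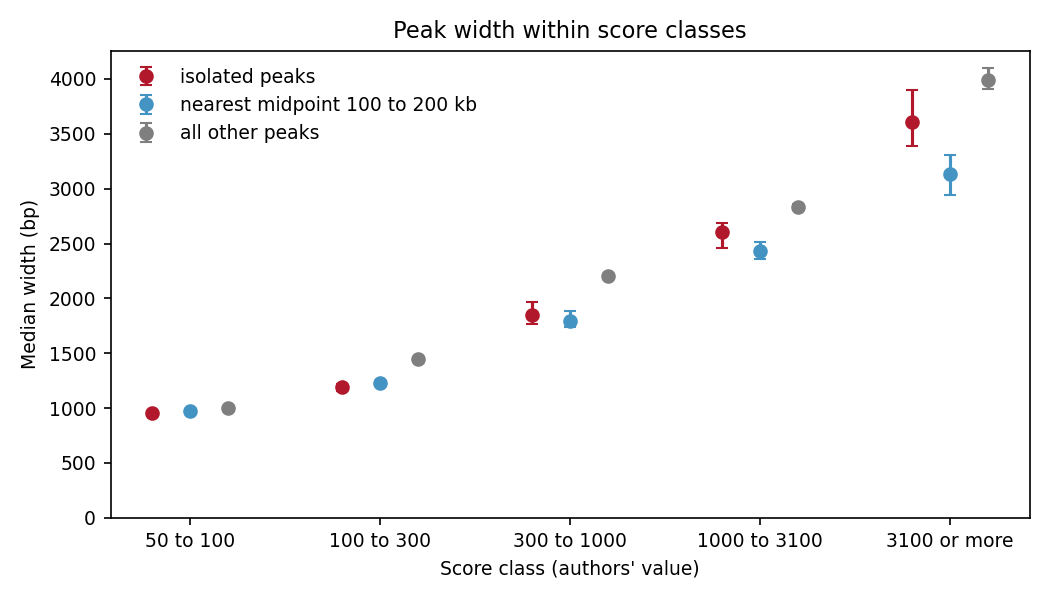
Median width in bp of isolated peaks (red), peaks with the nearest midpoint 100 to 200 kb away (blue) and all other peaks (grey) in 5 classes of the authors' score, with order-statistic 95% intervals; the blue peaks are also among the grey ones. Red lies below grey in every class and above blue in the 3 classes from 300 upwards.

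Scores of isolated peaks were spread much as those of the rest. The median was 182 (order-statistic interval 163 to 200) for isolated peaks and 172 (169 to 175) for all other peaks, and the intervals overlap. That small difference turned round when peaks scoring below 100 were removed first (362 for isolated and 382 for other peaks). It also turned round when peaks up to 1 kb apart were merged (184 and 196). A merged peak takes the highest score of its parts, so merging can only raise scores, and only those of close peaks. Weak peaks with scores below 100 were fewer among isolated peaks, 313 or 28.8% (26.2% to 31.6%), than among all other peaks, 33.0% (32.6% to 33.4%). Among peaks with the nearest midpoint 100 to 200 kb away the share was 28.6% (26.7% to 30.7%), much like that of isolated peaks. Ceiling peaks made up 5.89% of isolated peaks (4.64% to 7.46%) and 4.66% of the others (4.47% to 4.86%), a difference within the intervals. The median score was the higher one for isolated peaks on 13 of the 21 chromosomes with at least 10 of them and the lower one on 8. Against peaks with a neighbour at 100 to 200 kb the direction turned: there the median score was 182 for isolated peaks and 213 (194 to 235) for the less distant ones, and the ceiling shares were 5.89% and 7.73% (6.6% to 9.0%). The intervals overlap in both of these comparisons too.

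Across the whole range of spacing neither width nor score followed distance in order. The median score was 133 for peaks with a neighbour within 5 kb, 198 from 5 to 10 kb, 195 from 10 to 20 kb, 235 from 20 to 50 kb, 328 from 50 to 100 kb, 213 from 100 to 200 kb, 195 from 200 to 500 kb and 138 at 500 kb or more. It was thus highest at intermediate spacing and low at both extremes. The median width in the same classes up to 200 kb was 1445, 1689, 1581, 1577, 1646 and 1436 bp. The closest peaks were thus not the widest. The median width was 1386 bp in the 903 isolated peaks up to 500 kb from another and 1132 bp in the 183 more distant ones, with intervals of 1280 to 1464 bp and 1093 to 1302 bp that overlap. Scores below 100 made up 27.5% (24.7% to 30.5%) of those 903 and 35.5% (28.9% to 42.7%) of those 183. Among isolated peaks the rank correlation of distance with width was -0.12 and with score -0.10, a weak relation over peaks of 1 library.

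**Figure D4:**
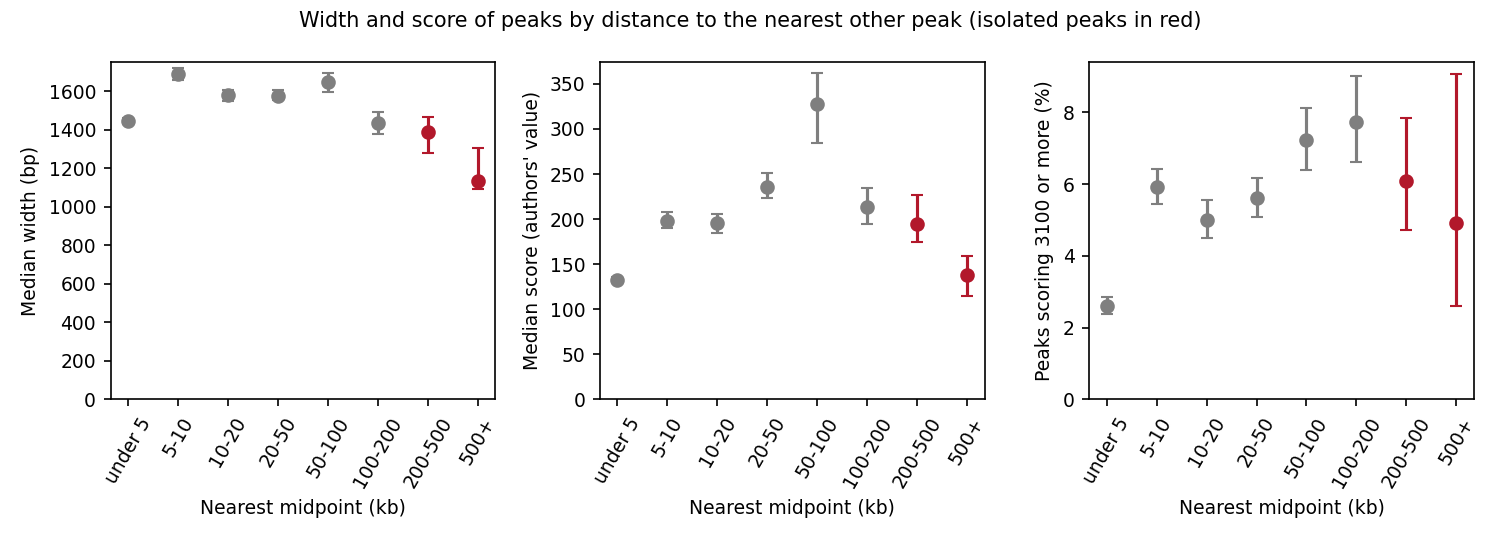
Median width, median score and share of peaks scoring 3100 or more in 8 classes of distance to the nearest other midpoint (kb), with 95% intervals from order statistics for medians and Wilson intervals for shares. The isolated classes (red) end a decline that begins beyond 50 to 100 kb for the score, from 328 in that class to 138 at 500 kb or more.

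Isolated peaks that adjoin a long peak-free interval had lower medians of width and score than the other members. The 249 isolated peaks beside an interval over 1 Mb had a median width of 1160 bp (1120 to 1226 bp) and a median score of 142 (116 to 165). The other 837 had 1407 bp (1302 to 1494 bp) and a score of 199 (180 to 242). Peaks of 5 kb or more did not follow the medians: they numbered 6 of the 249 (2.41%, 1.11% to 5.16%) and 9 of the 837 (1.08%, 0.567% to 2.03%), with overlapping intervals. Of the 20 widest isolated peaks 7 adjoined such an interval, among them the widest 3. With peaks beside such intervals and the outermost peaks of each chromosome left out, isolated peaks had a median of 1410 bp and all other peaks 1536 bp. Whether reads map well beside these intervals was not tested.

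Width and score went together among isolated peaks as closely as elsewhere, with a Spearman's rho of 0.871 over the 1086 and 0.862 over all other peaks. Both come from 1 peak call, so this describes the list. Of the 15 isolated peaks of 5 kb or more, 10 stood at the ceiling (66.7%, 41.7% to 84.8%), against 660 of the 1463 other peaks of that width (45.1%, 42.6% to 47.7%), and the intervals overlap.

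**Figure D5:**
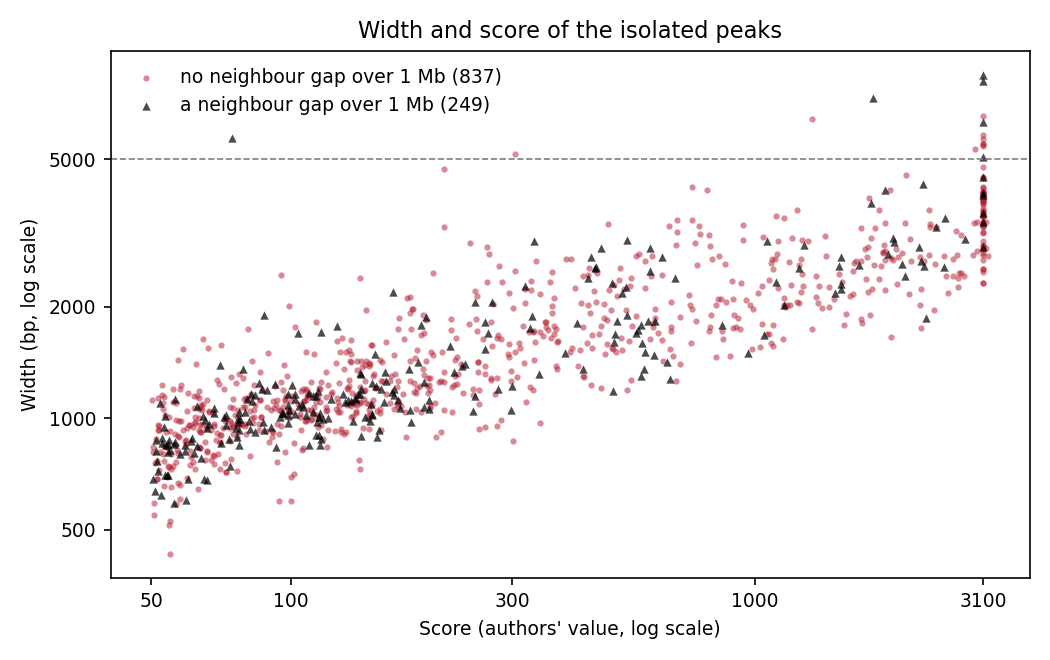
Width in bp against the authors' score for the 1086 isolated peaks, both on log scales; black triangles are the 249 beside a peak-free interval over 1 Mb, red points the other 837, and the dashed line marks 5 kb. Width climbs with score, and 3 of the 20 widest peaks lie off that band at scores below 1000.

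The widest isolated peak lay on chromosome 4 from 30718077 to 30726544. It spanned 8468 bp at a score of 3100, with its neighbours 2.46 Mb to the left and 1.28 Mb to the right, so no other peak lay within 1 Mb. It opened a run of 7 isolated peaks over 6.53 Mb. The 6 that followed it in this run scored 528.83, 54.33, 51.32, 61.8, 499.27 and 444.09 and were 741 to 2718 bp wide. The first peak thus had the largest width and score of the run.

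The second widest, 8166 bp at a score of 3100, lay on chromosome 14 from 85994946 to 86003111, with 1.89 Mb to the left neighbour and 297 kb to the right one. On chromosome 4 from 134067531 to 134074858 a peak of 7328 bp scored 1800.26 and had 205 kb on its left and 1.05 Mb on its right. These 3 peaks had 0, 4 and 1 other peaks within 1 Mb.

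Chromosome 13 held a pair of the 6 widest. One ran from 110433954 to 110440489 (6536 bp) and had 40 other peaks within 1 Mb, the most of the 20 widest, and the other ran from 58203250 to 58209549 (6300 bp) and had 12. Both scored 3100. Between them in width came chromosome 10 from 28029854 to 28036299, with 6446 bp, a score of 1325.15 and 16 other peaks within 1 Mb. The large peaks thus stood in surroundings that ranged from empty to well filled.

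The next peaks at the ceiling were 5070 to 5827 bp wide. They lay on chromosome 12 from 46119508 to 46125334 (5827 bp), on chromosome 6 from 12008357 to 12014049 (5693 bp) and from 139693038 to 139698528 (5491 bp), on chromosome 5 from 115907318 to 115912808 (5491 bp) and from 107004299 to 107009739 (5441 bp), and on chromosome 4 from 20252328 to 20257397 (5070 bp). A peak on chromosome 2 from 222433847 to 222439167 (5321 bp) scored 2988.65, just under that level. The 5 peaks of the 20 widest that fell short of 5 kb were 4483 to 4775 bp wide. The 20 were spread over 12 chromosomes, with 5 on chromosome 4, and 13 of them stood at the ceiling. Which genes they overlap was not analysed here.

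A few wide isolated peaks had low scores. The peak on chromosome 17 from 21902090 to 21907790 was 5701 bp wide at a score of 74.71, and a peak-free interval of 3.63 Mb lay to its right. On chromosome 7 from 56437609 to 56442775 a peak of 5167 bp scored 303.65, and on chromosome 16 from 33236867 to 33241567 a peak of 4701 bp scored 213.67. For comparison, isolated peaks with scores from 50 to 100 had quartiles of 835 and 1072 bp, and those from 100 to 300 had 1057 and 1421 bp. Of the 36 isolated peaks of 4 kb or more, 23 were at the ceiling, 8 scored from 1000 up to it and 5 scored below 1000. Whether the low-scoring ones lie in repeated sequence was not tested.

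The 64 isolated peaks at the ceiling were 2315 to 8468 bp wide, with a median distance of 267 kb to the nearest other midpoint. They were spread over 19 chromosomes. Chromosome 5 held 12 of them, chromosome 4 held 9, chromosome 3 held 7 and chromosome 12 held 6. Within 1 Mb they had a median of 9 other peaks, and isolated peaks with scores from 50 to 100 had 7. Of the 64, 10 adjoined a peak-free interval over 1 Mb. They were 4.02% (2.20% to 7.23%) of the 249 isolated peaks beside such an interval. The other 54 were 6.45% (4.98% to 8.32%) of the 837 isolated peaks without one, and the intervals overlap.

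No isolated peak on X stood at the ceiling. The 0 of 91 allows a share of up to 3.30% by the limit of 3 counts and up to 4.05% by the Wilson interval, against 64 of 995 on the autosomes, or 6.43% (5.07% to 8.13%). The other X peaks also had few, 19 of 839 or 2.26% (1.45% to 3.51%), so a difference between isolated and other peaks of X was not detectable at this number. Isolated X peaks were at most 3475 bp wide, with a median of 1332 bp (1157 to 1554 bp) against 1460 bp (1400 to 1513 bp) for the other X peaks. Their median score was 254 (159 to 440), against 276 (238 to 303) for the other X peaks and 179 (157 to 197) for isolated peaks of the autosomes. The intervals overlap in both comparisons. Scores on X were not corrected for copy number.

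The rule takes each deposited peak by itself and so passes over places where a few close peaks stand alone. With peaks up to 10 kb apart joined and distances taken between edges, 1130 islands were isolated, of which 1072 were a single peak and 58 held several. Islands of several peaks made up 5.13% of isolated islands and 29.7% of the others. The 58 had a median width of 6616 bp and the 1072 a median of 1302 bp, and the ceiling was reached in 11 of the 58 (19.0%, 10.9% to 30.9%) and in 60 of the 1072 (5.60%, 4.37% to 7.14%). A string of peaks has more chances to include a high score than 1 peak has. The longest of these islands lay on chromosome 5 from 92905807 to 92957799, with 10 peaks over 51993 bp at a top score of 3100, and 308 kb of peak-free sequence on its nearer side. Islands of 5 peaks stood on chromosome 6 from 38133353 to 38166542 (33190 bp, top score 410.23) and on chromosome X from 25020162 to 25039636 (19475 bp, 961.17). Island widths run from end to end and include the gaps of up to 10 kb between joined peaks.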

How the data were processed

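Per the submitters' processing notes, the aligner was BWA 0.7.17 and the genome build hg19. The authors deposited 1 peak list of 5 columns, called with MACS per the peak names; the caller's version is not given in the sources used here. Its score is deposited by the authors, has no stated unit and was used to describe and rank peaks within the list. The 90 peaks on chromosome Y and 1 on phiX174 lay outside the rule.

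Midpoints, widths and distances were computed in Python 3.11.15 with scipy 1.17.1, numpy 2.4.6 and pandas 2.3.3, and the finding of isolated peaks was checked on simulated positions. Shares carry 95% Wilson intervals, counts exact Poisson intervals and medians order-statistic intervals. No test was made, since each group has 1 library. The members, lists and comparisons were chosen with earlier results of these data known. The genes to be named were those at the 20 widest and the 10 most distant peaks; gene lists, transcription starts and base composition need hg19 annotation or sequence and were not analysed here.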

Additional observations from a re-analysis of the deposited data

Results flagged for a closer look

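Chromosome Y holds peaks that no comparison above uses. The same distance applied there gave 14 isolated peaks of 90, or 15.6% (Wilson interval 9.50% to 24.4%). This is a description of positions, like the counts on the other chromosomes. The 14 had a median width of 1043 bp and a median score of 183, 6 of them scored below 100, and the highest score was 2059.48. No other value was singled out.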

How the results depend on the processing

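Of 75 alternative values for 11 results, 46 stayed within the counting interval of the value as reported (or within 1.5 times, for the number of peaks), 22 moved and 7 turned round. A shorter or longer distance changes the number of isolated peaks, and removing peaks under 100 changes the shares and medians of score, by construction. Merging joins close peaks only, and the merged peak takes their highest score and runs from end to end. Its effect on the width and score differences is thus partly by construction. Other causes were not tested. The difference in median width over all scores kept its sign under all alternatives run, while the score differences did not. Within score classes the width difference did turn: the ratio of isolated peaks to peaks 100 to 200 kb from another ran from 0.968 to 1.15. Merging up to 10 kb and leaving out X were added after seeing the data.

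At 100 kb, 3039 peaks were isolated. At 500 kb there were 183 (median width 1132 bp, median score 138.1, 35.5% under 100); isolated minus other peaks was -400 bp in width and -34.4 in score. With peaks under 100 removed, 1261 peaks were isolated, and 773 of them were among the 1086. The 1261 had 1723 bp and a score of 361.6, with 9.28% at the ceiling and 0% under 100. Other peaks had 2017 bp and 381.6, and the differences were -294 bp and -20.1. Merged up to 1 kb, other peaks had 1673 bp and 195.8 (differences -340 bp, -11.6). Merged up to 10 kb, they had 2127 bp and 320.3 (-727 bp, -127.1, and -1.12 percentage points at the ceiling). Without peaks beside ends or intervals over 1 Mb, isolated peaks had 1410 bp. Against peaks 100 to 200 kb from another, the differences were -121 bp, -31.1 and -1.84 points. Per Mb the X to autosome ratio was 1.97. All values rest on 1 library of unknown depth. The alternatives on transcription starts, which need gene positions on hg19, were not run. No paired analysis was possible because there were no replicates to pair.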
